A study of Homo sapiens with 9 samples.

Results

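The expressed long intergenic noncoding RNAs (lincRNAs) of MDA-MB-231 cells were described across 3 culture conditions. A gene belonged to the set when the deposited table gave it the biotype lincRNA and its mean level over the 9 libraries was at least 1 FPKM (fragments scaled to gene length in kilobases and to library size). The rule kept 249 of the 7629 lincRNAs of the table, which lists 58735 genes in all. The members were chosen by their measured levels, so that they are expressed is not a result. The rule did not use the groups.

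MDA-MB-231 is an established human breast cancer line with a mesenchymal character. The study asked what the medium of senescent cancer cells does to other cancer cells. In the TIS CM group (3 libraries) the cells grew in the spent medium of MDA-MB-231 cells that 72 h of nocodazole, a microtubule poison given at 100 ng/ml, had driven into therapy-induced senescence. In the Cont CM group (3 libraries) the medium came from MDA-MB-231 cells that were not senescent, and in the No CM group (3 libraries) it was medium that no cells had conditioned. The labels give all 9 samples as wild type. The sample labels state 72 h of exposure and the series text states 48 h. All groups share the serum-supplemented medium and the 1 cell line, and the labels do not say whether replicates were separate cultures, so the p-values speak only of the spread among libraries, which may be technical.

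LincRNAs are transcribed by RNA polymerase II from loci between protein-coding genes, and most are spliced, capped and polyadenylated like messenger RNAs. Some act in the nucleus, as NEAT1 does when it scaffolds paraspeckles. Others act in the cytoplasm, as NORAD does when it binds PUMILIO proteins, and some are mainly known as hosts of small nucleolar RNAs or microRNAs that are cut from their introns or exons. Many have no known function, and their levels often differ strongly between cell types and with cell state.

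Libraries held between 32636708 and 39189036 fragments on genes, recovered from the FPKM, and the lincRNA set took between 0.272% and 0.320% of them. The mesenchymal marker VIM lay between 345 and 401 FPKM, and CD44, CAV1, ANXA1, AXL and LGALS1 were also high in every library. Of the markers expected to be absent or low, ESR1 and PGR reached at most 0.00801 and 0.00539 FPKM and TFF1 0.854 FPKM, whereas GATA3 lay between 4.67 and 6.72 FPKM in every library. CDH1, the epithelial cadherin, averaged 0.438 FPKM in TIS CM, 0.299 FPKM in Cont CM and 1.17 FPKM in No CM, and its part in the results was not tested. Of the markers of other cells described here, DCN was at 0 in every library, and PDGFRB was highest, at 0.968 to 1.52 FPKM. Cont CM replicate 1 stood apart from its group on the second principal component of all tested genes, at -19.32 against 13.44 and 7.62 for the other Cont CM libraries, and Cont CM replicate 2 had the strongest trend of level with GC content (r = -0.41 across genes). The members with the largest changes in Cont CM, and the summed level, are given below with and without Cont CM replicate 1.

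The sequences below are those of 3 lincRNAs that were higher in Cont CM than in No CM and whose start is in the RefSeq promoter table (GRCh38.p14). They are shown because their starts differ in a short motif. Each runs 5′ to 3′ from 250 bases before to 50 bases after the RefSeq start. Capitals mark matches on either strand to TGANTCA, with N any base, called the AP-1 element here. This is looser than the core that AP-1 transcription factors are known to bind, which has C or G at N.
MANCR promoter, chr10:4678021-4678320, minus strand: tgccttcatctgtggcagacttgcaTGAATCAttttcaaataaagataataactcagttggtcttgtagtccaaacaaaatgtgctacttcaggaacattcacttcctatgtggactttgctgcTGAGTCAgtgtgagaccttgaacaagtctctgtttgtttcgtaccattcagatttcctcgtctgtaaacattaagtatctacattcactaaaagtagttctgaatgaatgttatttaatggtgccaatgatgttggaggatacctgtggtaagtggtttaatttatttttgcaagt
LINC02407 promoter, chr12:76259633-76259932, plus strand: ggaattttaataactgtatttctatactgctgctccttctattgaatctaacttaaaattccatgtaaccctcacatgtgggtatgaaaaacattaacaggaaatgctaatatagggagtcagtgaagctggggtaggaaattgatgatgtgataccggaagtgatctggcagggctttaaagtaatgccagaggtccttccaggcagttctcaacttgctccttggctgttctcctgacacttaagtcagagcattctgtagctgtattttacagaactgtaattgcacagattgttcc
LINC01224 promoter, chr19:23416025-23416324, minus strand: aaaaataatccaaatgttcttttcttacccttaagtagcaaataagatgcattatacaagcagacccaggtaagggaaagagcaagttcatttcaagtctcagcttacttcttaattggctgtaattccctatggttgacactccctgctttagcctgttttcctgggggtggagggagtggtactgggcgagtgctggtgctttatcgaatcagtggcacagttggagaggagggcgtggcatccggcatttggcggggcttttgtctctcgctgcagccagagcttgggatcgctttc
Only the MANCR window, of these 3, held the element, as TGAATCA at 225 and TGAGTCA at 126 bases before the start.

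A promoter entry was found by symbol for 91 of the 249 lincRNAs. The AP-1 element stood in 4 of the 11 windows of lincRNAs called higher in Cont CM against No CM, which were those of LINC00973, MANCR, LINC01411 and LINC01173. It stood in 0 of the 5 windows of lincRNAs called lower, in 5 of the 75 of lincRNAs not called, and in 7.71% of all 35116 promoters of the table. The other motifs were not more frequent among the higher members: the STAT-type element TTCNNNGAA was in 0 of 11 windows (7.66% of all promoters), the hypoxia element ACGTG or GCGTG in 5 of 11 (48.4%) and the TATA box TATAAA in 0 of 11 (11.5%). Both strands were searched, the motifs do not contain each other, and the RefSeq start of LINC00973 lies 66492 bases from the start in the deposited table. The only AP-1 match of LINC00973 is TGATTCA, without C or G at N, and the counts did not require C or G there. With 11 windows these are descriptions of letters, not of bound sites.

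The next 2 sequences are the spliced RNAs, as GENCODE 29 gives them for hg38, of the lincRNA that fell most in Cont CM and of the one that rose most. They are short, with 375 and 425 bases, and the first 300 bases of each are shown; no part is in capitals.
LINC02595 RNA, chrX:45848074-45851490, minus strand, spliced, bases 1 to 300: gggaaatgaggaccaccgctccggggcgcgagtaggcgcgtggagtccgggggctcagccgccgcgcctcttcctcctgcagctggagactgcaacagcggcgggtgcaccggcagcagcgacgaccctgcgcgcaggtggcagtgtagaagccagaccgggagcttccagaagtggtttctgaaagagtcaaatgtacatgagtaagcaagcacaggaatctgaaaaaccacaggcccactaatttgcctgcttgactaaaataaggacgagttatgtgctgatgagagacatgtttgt
AC034223.2 RNA, chr5:33011322-33017607, minus strand, spliced, bases 1 to 300: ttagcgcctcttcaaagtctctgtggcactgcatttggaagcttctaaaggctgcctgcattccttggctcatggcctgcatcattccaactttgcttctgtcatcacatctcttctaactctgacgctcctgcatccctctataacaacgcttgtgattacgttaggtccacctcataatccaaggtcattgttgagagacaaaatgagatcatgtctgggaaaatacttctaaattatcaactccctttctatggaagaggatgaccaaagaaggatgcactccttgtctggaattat
Short RNAs like these gather few fragments at a given FPKM.

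The set was dominated by a few RNAs. NORAD, which binds PUMILIO proteins and is needed for genome stability, was the most abundant, with a mean of 106 FPKM and 9.93% of the summed level. It was followed by AL161431.1 at 63.3 FPKM, UCA1 at 36.2, SNHG8 at 33.9 and LINC00973 at 28.6, and then by FLJ22447, AL390729.1, MANCR, SFTA1P, AC091182.2, SNHG19 and AC245041.1 between 15.8 and 11.1 FPKM. The leading 4 held 22.5% and the leading 12 held 34.2% of the summed level. In the tail, 111 members lay between 1 and 2 FPKM and 89 between 2 and 5 FPKM. Median level was 2.23 FPKM, against 7.38 FPKM for the 11276 protein-coding genes tested.

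**Figure D1:**
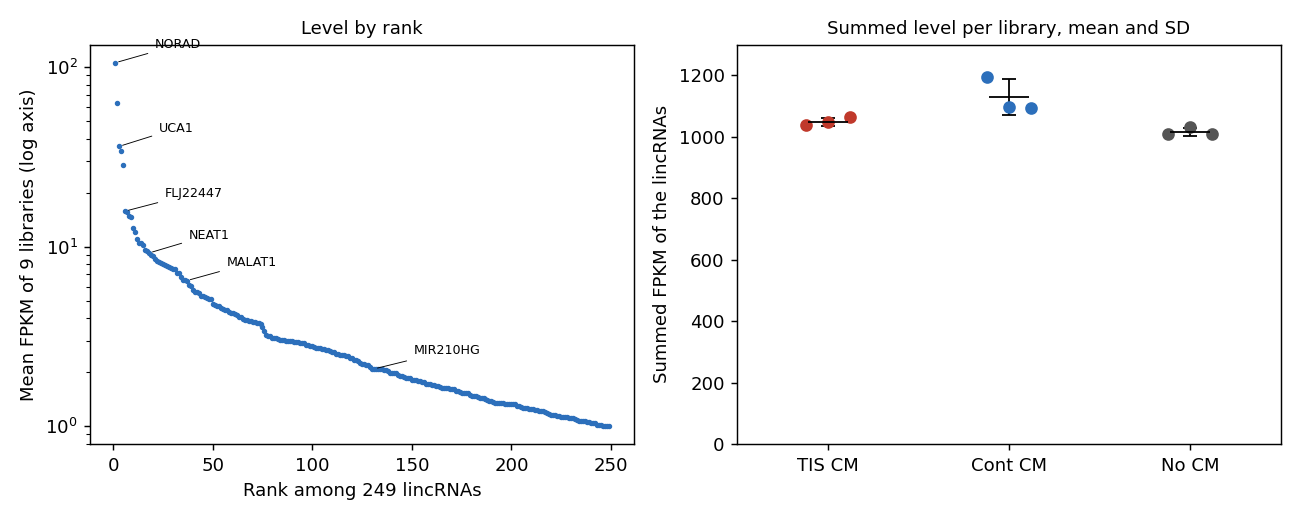
The left panel plots the mean FPKM over 9 libraries (log axis) against rank for the 249 lincRNAs, with some members named. The right panel plots the summed FPKM of the set per library (points) with the mean and SD of 3 libraries (bars), and all Cont CM points lie above the TIS CM and No CM points.

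At the threshold, LINC01273, AC093833.1 and AC092614.1 were just inside with mean levels of 1.01, 1.00 and 1.00 FPKM, and LINC02577, AC069544.1 and AL353804.1 just outside with 0.994, 0.992 and 0.987 FPKM. All 249 passed the filter for testing, a mean of 0.5 FPKM. Of them, 180 were at 1 FPKM or more in all libraries, none was at 0 in any library, and 27 had a group mean below 1. Those 27 were kept through the other groups, so the counts below are descriptions of the set as chosen.

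The members were shorter than coding genes, with a median exonic length of 1246 against 5104 bases, at a similar median GC content (48.8% against 48.0%). In the names, 134 carry only a clone identifier and 52 begin with LINC. Exons of 149 members overlapped no other gene of the annotation. Exons of 63 overlapped those of a tested gene, 58 of them on the opposite strand, and since it is not given whether counting used strand, their fragments may include those of the other gene.

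Replicates of the lincRNAs scattered more than those of coding genes at the same level. Between 1 and 2 FPKM the median SD within groups was 0.22 on the log2 scale for 111 members, with a median of 47.4 fragments per library, against 0.10 for 1178 coding genes with 308 fragments. Between 10 and 100 FPKM it was 0.14 for 14 members with 1011 fragments, against 0.06 for 4259 coding genes with 3338 fragments. Over the whole set, the median standard error of a log2 difference was 0.13, against 0.07 for all 13912 tested genes. At the median, a lincRNA needed a larger difference than other genes to be called.

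The summed level of the set was 1038, 1047 and 1063 FPKM in TIS CM, 1196, 1098 and 1095 FPKM in Cont CM, and 1008, 1031 and 1010 FPKM in No CM. Every Cont CM library lay above every library of the other groups. The ratio of means was 0.929 for TIS CM against Cont CM, 1.11 for Cont CM against No CM and 1.03 for TIS CM against No CM. Without Cont CM replicate 1 the ratios were 0.957 for TIS CM against Cont CM and 1.08 for Cont CM against No CM. Each of the 3 ratios gave p = 0.1 in a 2-sided exact permutation test, the smallest that 3 against 3 libraries allow, so none of these differences can pass a threshold of 0.05. The last ratio turned to 0.998 (exact permutation p = 0.9) when all libraries were scaled to equal sums. The sum is weighted to abundant members, among them AL161431.1, UCA1 and LINC00973, which rose in Cont CM against No CM (values below). It does not speak for most members, whose median log2 difference between these groups was 0.03. As these are bulk samples, fewer cells that express an RNA and less of it per cell cannot be told apart.

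Cont CM differed from No CM in the most members. Of the 249, 26 rose and 12 fell in Cont CM (15.3% called), with limma on log2(FPKM + 0.5) and a Benjamini-Hochberg adjusted p under 0.05 over all tested genes, and 211 were not called. Among all 13912 tested genes the same rule called 16.3%, with 7.77% higher and 8.56% lower. The share of lincRNAs called was thus near that of all genes, with 10.4% higher and 4.82% lower. The median log2 difference was 0.03 for the members, against -0.001 for all tested genes. All 3 Cont CM libraries lay above all No CM libraries for 48 members and below them for 26, against 16.6% and 16.8% of all tested genes. Without Cont CM replicate 1 the counts were 25 higher and 17 lower, without Cont CM replicate 2 they were 22 and 5, and without Cont CM replicate 3 they were 19 and 6. Without No CM replicate 1, 2 or 3 they were 21 and 3, 20 and 5, and 17 and 4. The number of lower members thus varied with the library left out. Calls over all tested genes varied too, from 2272 with all libraries. They were 2770, 1616 and 1708 without Cont CM replicate 1, 2 or 3, and 1477, 1497 and 1075 without No CM replicate 1, 2 or 3. Of the 38 calls, 18 held when any single library of either group was left out.

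**Figure D2:**
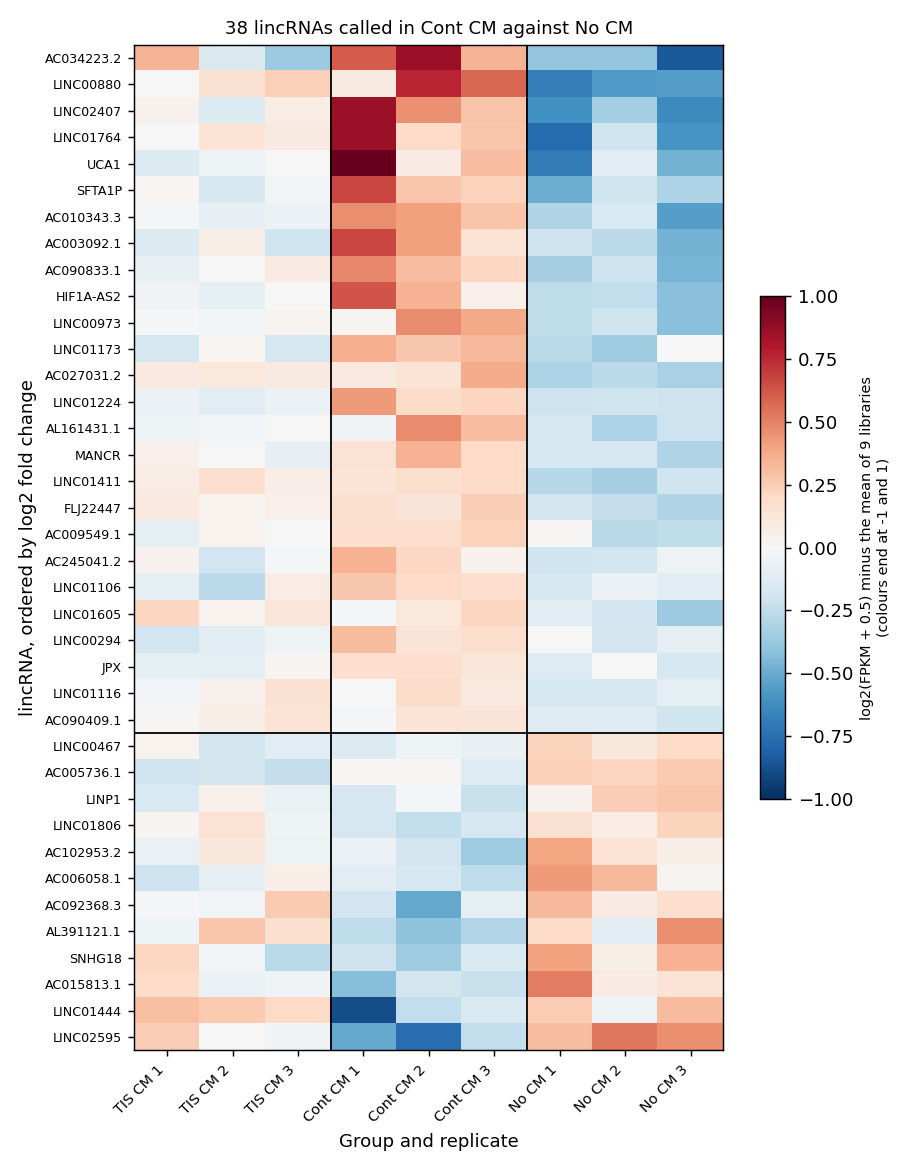
Each row is 1 of the 38 lincRNAs called in Cont CM against No CM, and each column 1 library. Colour gives log2(FPKM + 0.5) minus the mean of the 9 libraries, with the 26 higher members above the line and the 12 lower ones below it; the 3 Cont CM columns differ in strength, and Cont CM 1 is darkest for UCA1, LINC02407 and LINC01764.

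UCA1, first described in bladder carcinoma and studied as an RNA that promotes growth and drug resistance, was the most abundant of the members with a near doubling. It had 31.0, 33.0 and 34.3 FPKM in TIS CM, 71.9, 36.2 and 42.4 FPKM in Cont CM, and 20.8, 31.5 and 24.5 FPKM in No CM. The Cont CM libraries did not overlap the others, but replicate 1 was far above replicates 2 and 3. The difference of Cont CM against No CM was 0.91 ± 0.23 on the log2 scale (SE, adjusted p = 0.0276). Without Cont CM replicate 1 it was 0.63 (adjusted p = 0.0212), and the call was lost without No CM replicate 1 (adjusted p = 0.0863) or No CM replicate 3 (adjusted p = 0.0857). UCA1 lies at chr19:15828206-15836326 (hg38, plus strand).

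LINC01764 starts within the UCA1 locus on the minus strand (chr19:15827045-15835853), and UCA1 exons cover 73.1% of its exonic bases. Its levels were 2.75, 3.06 and 2.96 FPKM in TIS CM, 5.39, 3.21 and 3.43 FPKM in Cont CM, and 1.41, 2.32 and 1.66 FPKM in No CM. It followed the same order of libraries in the Cont CM group as UCA1, and rose by 0.96 ± 0.19 on the log2 scale (adjusted p = 0.0095), or by 0.755 without Cont CM replicate 1 (adjusted p = 0.00958). Without strand, fragments of the shared bases cannot be assigned to either RNA, so LINC01764 is uncertain.

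The largest rise on the log2 scale was that of AC034223.2 (chr5:33011322-33017607, minus strand), whose RNA sequence is printed above. It had 4.66, 3.19 and 2.67 FPKM in TIS CM, 5.71, 6.89 and 4.68 FPKM in Cont CM, and 2.605, 2.611 and 1.78 FPKM in No CM. The Cont CM libraries were above all others, and the difference from No CM was 1.14 ± 0.20 (adjusted p = 0.00637), also 1.14 without Cont CM replicate 1. This gene lies inside the span of AC010343.3 (chr5:32925639-33297910) on the same strand, with no shared exon base. AC010343.3 also rose, by 0.72 ± 0.09 (adjusted p = 0.00162), or by 0.68 without Cont CM replicate 1.

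LINC02407 (chr12:76259839-76305131, plus strand) and LINC00880 were more than 2-fold higher in Cont CM than in No CM. LINC02407 had 7.32, 6.40 and 7.49 FPKM in TIS CM, 13.3, 9.96 and 8.79 FPKM in Cont CM, and 4.49, 5.52 and 4.39 FPKM in No CM. The 3 groups did not overlap, and the rise was 1.06 ± 0.14 (2.09-fold, adjusted p = 0.00191). LINC00880 had 1.91, 2.18 and 2.34 FPKM in TIS CM, 2.06, 3.58 and 3.08 FPKM in Cont CM, and 0.987, 1.13 and 1.14 FPKM in No CM. Its Cont CM and TIS CM libraries overlapped, both were above all No CM libraries, and its rise over No CM was 1.08 ± 0.15 (2.11-fold, adjusted p = 0.00258). Exons of other annotated genes, none of them tested, cover 53.4% of the exonic bases of LINC00880. Without Cont CM replicate 1 the rise was 0.90 for LINC02407 (adjusted p = 0.00122) and 1.27 for LINC00880 (adjusted p = 0.000223).

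SFTA1P, a transcribed pseudogene of a surfactant-associated gene known from lung, had 14.4, 12.6 and 13.8 FPKM in TIS CM, 22.8, 17.3 and 16.6 FPKM in Cont CM, and 9.87, 12.2 and 11.3 FPKM in No CM. It rose by 0.73 ± 0.12 in Cont CM against No CM (adjusted p = 0.00442), and as a pseudogene it may share fragments with related copies. It starts 3417 bases from CELF2, which runs the other way and was not called (log2 difference 0.20). AC003092.1 and AC090833.1, which have only clone names, rose by 0.72 ± 0.14 (adjusted p = 0.0103) and 0.67 ± 0.09 (adjusted p = 0.00192). AC003092.1 had 0.956, 1.17 and 0.893 FPKM in TIS CM, 2.05, 1.63 and 1.27 FPKM in Cont CM, and 0.884, 0.835 and 0.657 FPKM in No CM. AC090833.1 had 4.30, 4.56 and 4.85 FPKM in TIS CM, 6.54, 5.78 and 5.33 FPKM in Cont CM, and 3.51, 3.89 and 3.16 FPKM in No CM. In both, every Cont CM library was above every other library. Without Cont CM replicate 1 the rise was 0.59 for each of SFTA1P (adjusted p = 0.00316), AC003092.1 (adjusted p = 0.0169) and AC090833.1 (adjusted p = 0.00297).

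HIF1A-AS2, which overlaps HIF1A, the oxygen-regulated subunit of hypoxia-inducible factor 1, rose, and so did FLJ22447 on the same chromosome. HIF1A-AS2 (chr14:61715558-61751097, minus strand), an antisense transcript of the locus known to be induced by low oxygen, had 6.79, 6.49 and 6.98 FPKM in TIS CM, 11.03, 9.003 and 7.22 FPKM in Cont CM, and 5.76, 5.78 and 5.08 FPKM in No CM. Its Cont CM libraries were above all others and its rise over No CM was 0.65 ± 0.12 (adjusted p = 0.00902), or 0.51 without Cont CM replicate 1 (adjusted p = 0.00749). FLJ22447 (chr14:61570540-61658696, plus strand), studied as an RNA of carcinoma-associated fibroblasts, had 16.8, 16.1 and 16.2 FPKM in TIS CM, 17.6, 17.1 and 18.6 FPKM in Cont CM, and 13.7, 13.2 and 12.6 FPKM in No CM. It rose by 0.42 ± 0.05 in Cont CM against No CM (adjusted p = 0.000789). Its nearest tested coding gene was PRKCH, a protein kinase C gene 19564 bases away on the same strand, which was not called (log2 difference 0.32). Between these lincRNAs, HIF1A-AS1 was not called (log2 difference -0.18), with No CM libraries that ranged from 3.40 to 7.42 FPKM. HIF1A averaged 94.5 FPKM in TIS CM, 96.5 in Cont CM and 103 in No CM, and was not called in any comparison (log2 difference -0.10 for Cont CM against No CM).

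**Figure D3:**
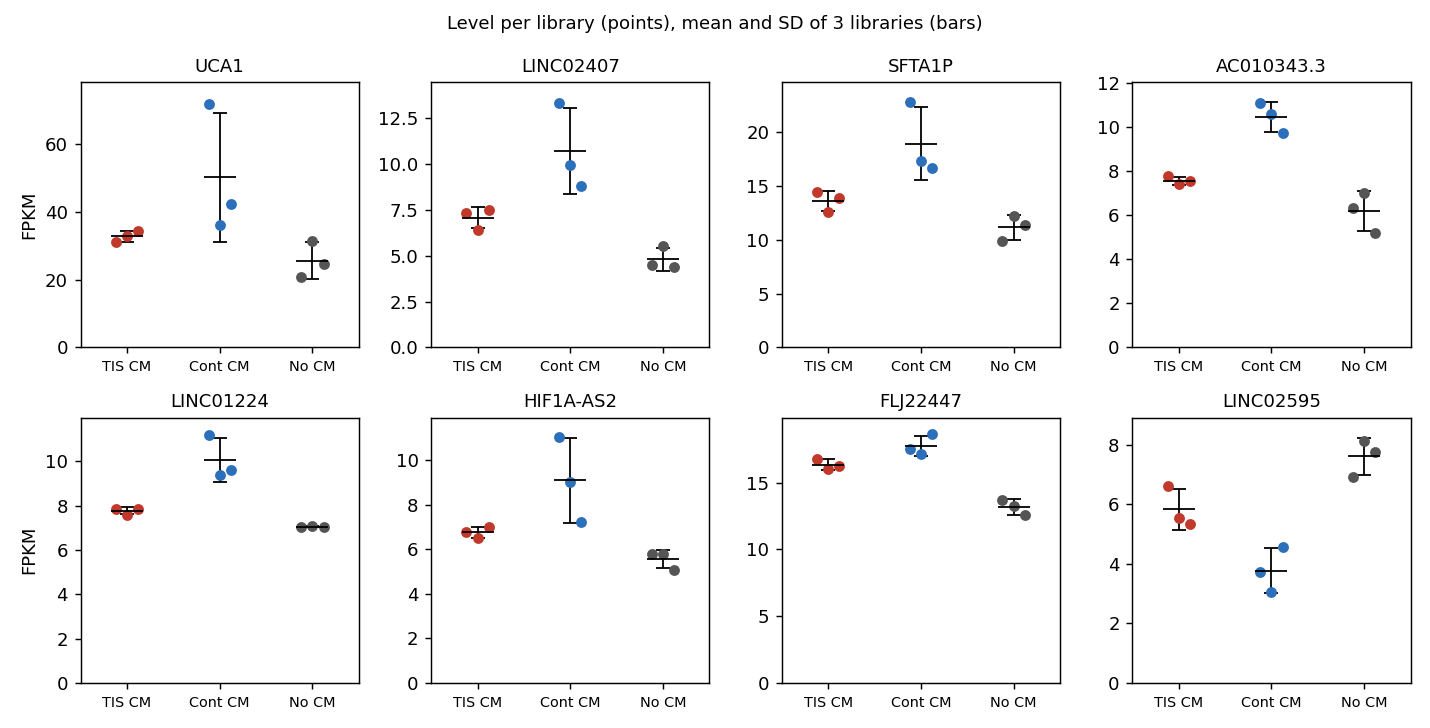
Each panel plots the FPKM of 1 lincRNA per library (points) with the mean and SD of 3 libraries (bars) for TIS CM, Cont CM and No CM; all axes start at 0. Cont CM is the highest group for every panel but LINC02595, where it is the lowest, and the TIS CM mean lies between the other 2 means in all 8 panels. All 8 were picked from the members called in Cont CM against No CM.

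Among the members at 10 FPKM or more, 4 others rose in Cont CM against No CM. AL161431.1 had 60.6, 61.2 and 62.7 FPKM in TIS CM, 60.9, 87.0 and 77.5 FPKM in Cont CM, and 55.8, 50.2 and 54.1 FPKM in No CM, a rise of 0.47 ± 0.11 (adjusted p = 0.019) that was not called without Cont CM replicate 3, No CM replicate 2 (adjusted p = 0.0633) or No CM replicate 3. LINC00973, studied in treated carcinoma cells, had 27.9, 27.5 and 28.7 FPKM in TIS CM, 28.6, 39.2 and 36.7 FPKM in Cont CM, and 23.5, 24.4 and 20.9 FPKM in No CM, a rise of 0.58 ± 0.10 (adjusted p = 0.00714). In both, Cont CM replicate 1 lay near the TIS CM libraries and the other Cont CM libraries above them. MANCR, named for its association with mitosis and studied in breast cancer, had 15.2, 14.7 and 13.8 FPKM in TIS CM, 16.3, 18.9 and 16.8 FPKM in Cont CM, and 13.0, 13.0 and 11.8 FPKM in No CM, with 3 groups that did not overlap and a rise over No CM of 0.44 ± 0.06 (adjusted p = 0.00273). LINC01116, studied in several carcinomas, rose by 0.24 ± 0.06 (adjusted p = 0.0325), and its call held in 1 of the 6 fits without a library of these groups, with adjusted p up to 0.0923 without No CM replicate 2.

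LINC02595 (chrX:45848074-45851490, minus strand), whose RNA sequence is printed above, fell most in Cont CM. It had 6.63, 5.53 and 5.35 FPKM in TIS CM, 3.72, 3.05 and 4.56 FPKM in Cont CM, and 6.94, 8.14 and 7.77 FPKM in No CM. The 3 groups did not overlap, and Cont CM was 1.91-fold lower than No CM, a log2 difference of -0.94 ± 0.13 (adjusted p = 0.00208) that was also -0.94 without Cont CM replicate 1. The host gene MIR222HG on the same strand, 77800 bases away, was not called (log2 difference -0.21).

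The other falls in Cont CM against No CM were between 1.201-fold and 1.52-fold, and most were near the threshold. LINC01444 had 3.07, 2.96 and 2.82 FPKM in TIS CM, 1.07, 1.94 and 2.10 FPKM in Cont CM, and 2.94, 2.31 and 3.10 FPKM in No CM, a log2 difference of -0.60 ± 0.18 (adjusted p = 0.0485). Cont CM replicate 1 was its lowest library, and without it the difference was -0.37 (adjusted p = 0.0402). SNHG18, host of a small nucleolar RNA, had 4.27, 3.54 and 2.94 FPKM in TIS CM, 3.08, 2.73 and 3.23 FPKM in Cont CM, and 4.95, 3.80 and 4.76 FPKM in No CM, a difference of -0.51 ± 0.13 (adjusted p = 0.0296). AC015813.1 and AC092368.3 lay between 0.636 and 1.83 FPKM in all libraries, with differences of -0.52 and -0.46. AC006058.1 differed by -0.44 (Cont CM mean 3.63 FPKM, No CM mean 5.13 FPKM) and AC102953.2 by -0.40 (1.34 against 1.94 FPKM).

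LINC01806 had 2.94, 3.24 and 2.78 FPKM in TIS CM, 2.499, 2.35 and 2.51 FPKM in Cont CM, and 3.25, 3.06 and 3.44 FPKM in No CM, a difference of Cont CM from No CM of -0.34 ± 0.07 (adjusted p = 0.0105). LINP1, which is known to hold DNA end-joining proteins together at double-strand breaks, averaged 1.60 ± 0.16 FPKM in Cont CM and 2.13 ± 0.22 FPKM in No CM (SD, n = 3 each), a difference of -0.32 ± 0.09 (adjusted p = 0.0469, limma). Of the 10 lincRNAs with the largest falls, the calls of LINC02595 and LINC01806 held in all 6 fits without a library of these groups. The highest adjusted p of the others was 0.15 for LINC01444, 0.101 for SNHG18, 0.154 for LINP1 and 0.0998 for AL391121.1, each without No CM replicate 3. It was 0.0784 for AC015813.1, 0.13 for AC092368.3 and 0.113 for AC102953.2, each without No CM replicate 1, and 0.0775 for AC006058.1 without No CM replicate 2.

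AL391121.1 had 5.72, 7.28 and 6.69 FPKM in TIS CM, 4.90, 4.36 and 4.74 FPKM in Cont CM, and 6.85, 5.47 and 8.36 FPKM in No CM. Cont CM was the lowest group without overlap, at a difference of -0.50 ± 0.13 from No CM (adjusted p = 0.0352). All of its exonic bases (100%) lie on exons of TRIM8, a ubiquitin ligase gene on the opposite strand with a mean of 39.98 FPKM, which itself fell in Cont CM (-0.25). Without strand the 2 cannot be separated, so the level of AL391121.1 may be that of TRIM8.

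Of the 5 members on the list of nuclear and chromatin-associated RNAs, 1 was called. NORAD stands on this list and in its median, although it is described above as acting in the cytoplasm. JPX, an RNA of the X-inactivation centre, rose in Cont CM against No CM by 0.26 ± 0.07 (adjusted p = 0.0358), a call that held in 1 of 6 fits without a library and reached an adjusted p of 0.123 without No CM replicate 3. Exons of other annotated genes, none of them tested, cover 83.6% of the exonic bases of JPX. NORAD had 103, 105 and 104 FPKM in TIS CM, 93.8, 114 and 107 FPKM in Cont CM, and 117, 104 and 104 FPKM in No CM, with overlap throughout. MALAT1, a nuclear speckle RNA, had 4.80, 6.04 and 5.19 FPKM in TIS CM, 9.08, 5.39 and 5.31 FPKM in Cont CM, and 7.86, 7.90 and 6.68 FPKM in No CM. NEAT1 had 7.68, 9.24 and 8.44 FPKM in TIS CM, 12.1, 6.75 and 7.43 FPKM in Cont CM, and 11.03, 11.03 and 9.36 FPKM in No CM. In both, Cont CM replicate 1 was above every other library, the other Cont CM libraries were below all No CM libraries, and neither RNA was called. The list's median log2 difference was -0.05 for Cont CM against No CM.

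Of the 8 members matched by symbol to the list of snoRNA hosts, SNHG18 fell in Cont CM against No CM. The other 7 were not called, and the median log2 difference was -0.08. LINC02001, which RefSeq names SNHG30, is left out of this count because the match used the older name. SNHG8 had 35.1, 37.0 and 36.4 FPKM in TIS CM, 34.9, 26.6 and 34.7 FPKM in Cont CM, and 34.0, 32.0 and 34.3 FPKM in No CM. SNHG19 had 14.1, 12.4 and 11.2 FPKM in TIS CM, 11.3, 9.63 and 10.4 FPKM in Cont CM, and 15.1, 12.5 and 12.4 FPKM in No CM, and its difference of -0.33 just missed the threshold (adjusted p = 0.0528). CYTOR, SNHG4, SNHG9, SNHG15 and EPB41L4A-AS1, the other members of the list, had means between 1.48 and 6.49 FPKM. CYTOR stands on this list and in its median, but that it hosts a small nucleolar RNA was not checked. The well-known hosts GAS5, SNHG1 and SNHG5 carry another biotype in the table and are no members.

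None of the 7 microRNA hosts was called in any comparison. MIR4435-2HG (5.29 FPKM), MIR22HG (3.57), MIR222HG (3.37), MIR503HG (3.17), MIR4458HG (2.33), MIR210HG (2.09) and MIR3142HG (1.70) had a median log2 difference of 0.00 for Cont CM against No CM. The inflammatory and interferon list held 3 of these and BISPR and PSMB8-AS1, 5 members in all, with 0 called and a median of 0.03. Its best known inflammatory member, MIR155HG, was listed at 0 in every library. At an unadjusted p under 0.05, 78 of the 249 lincRNAs differed between Cont CM and No CM, against 4361 of all 13912 tested genes. Of these 78, 38 were past the adjusted threshold.

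Of the 5 members on the list of hypoxia-induced RNAs, UCA1 rose and MIR210HG, MALAT1, NEAT1 and HIF1A-AS1 were not called, with a median of -0.18. HIF1A-AS2, which rose and is also known to respond to low oxygen, was not on that list, so the count leaves it out. MIR210HG, host of the microRNA most closely tied to low oxygen, averaged 2.05 ± 0.16 FPKM in TIS CM, 2.11 ± 0.31 in Cont CM and 2.10 ± 0.16 in No CM (SD, n = 3 each). The 3 p53 and DNA damage members, NORAD, NEAT1 and PVT1, were not called (median -0.05). Of the 7 RNAs studied in carcinomas, UCA1, LINC01116 and LINC00973 rose and CYTOR, LINC00472, LINC00857 and LINC01638 were not called, with a median of 0.08. LINC00467, which encodes a small mitochondrial protein, fell by 0.26 on the log2 scale (adjusted p = 0.0391), and its adjusted p was between 0.0601 and 0.116 when any 1 Cont CM or No CM library was left out. The lists were chosen with results of these data known, and several RNAs, NEAT1 and UCA1 among them, stand on more than 1 list.

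TIS CM differed from Cont CM in 4 members. LINC01224, AC010343.3 and LINC00294 fell in TIS CM and LINC02595 rose, which is 1.61% of the 249, against 4.48% of all tested genes (2.9% higher and 1.57% lower). At an unadjusted p under 0.05, 54 members differed, against 3249 of all 13912 tested genes. The median log2 difference was -0.03 for the members and 0.00 for all tested genes. TIS CM libraries lay below all Cont CM libraries for 40 members and above them for 18, against 13.6% and 15.0% of all tested genes. No member of any of the 8 lists was called.

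LINC01224 (chr19:23399233-23416075, minus strand) had 7.85, 7.58 and 7.87 FPKM in TIS CM, 11.2, 9.39 and 9.62 FPKM in Cont CM, and 7.02, 7.10 and 7.05 FPKM in No CM. The TIS CM and Cont CM libraries did not overlap, and TIS CM was lower by a log2 difference of -0.35 ± 0.06 (adjusted p = 0.0217). The call was lost without TIS CM replicate 1, 2 or 3 (adjusted p 0.0796, 0.0859 and 0.0718), and was -0.28 (adjusted p = 0.0119) without Cont CM replicate 1. Cont CM exceeded No CM by 0.48 ± 0.06 (adjusted p = 0.00162).

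AC010343.3 had 7.76, 7.40 and 7.55 FPKM in TIS CM, 11.1, 10.6 and 9.72 FPKM in Cont CM, and 6.30, 7.03 and 5.21 FPKM in No CM. TIS CM was lower than Cont CM, with a log2 difference of -0.44 ± 0.09 (adjusted p = 0.0355). LINC00294 had 2.505, 2.69 and 2.83 FPKM in TIS CM, 3.79, 3.25 and 3.39 FPKM in Cont CM, and 2.96, 2.53 and 2.71 FPKM in No CM, and its difference of TIS CM from Cont CM was -0.32 ± 0.08 (adjusted p = 0.0469). In both, each Cont CM library was above all 6 others. The call of AC010343.3 was lost without any TIS CM library (adjusted p 0.107 to 0.117), without Cont CM replicate 1 (0.0514) and without Cont CM replicate 2 (0.0954). That of LINC00294 was lost without any single library of these groups (0.0645 to 0.151), and its rise in Cont CM over No CM, 0.30 ± 0.08 (adjusted p = 0.0287), was lost without Cont CM replicate 1 (0.0549), Cont CM replicate 3 (0.0581), No CM replicate 2 (0.0902) or No CM replicate 3 (0.0872).

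LINC02595 was 1.49-fold higher in TIS CM than in Cont CM, a log2 difference of 0.58 ± 0.13 (adjusted p = 0.0406). Its lowest TIS CM library, 5.35 FPKM, was above its highest Cont CM library, 4.56 FPKM. The call held only without Cont CM replicate 3 (adjusted p = 0.0238) among the 6 fits that left out a library of these groups, and the adjusted p was highest without TIS CM replicate 1 (0.132). The difference of TIS CM from No CM was -0.36 ± 0.13, which was not called (adjusted p = 0.253). Both of the comparisons in which LINC02595 was called use the same Cont CM libraries.

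The No CM libraries enter these calls through the shared estimate of spread. Without 1 of them, LINC01224 stayed called (adjusted p 0.0392 to 0.0427), LINC02595 did not (0.0570 to 0.0638), LINC00294 did not (0.0579 to 0.0757), and AC010343.3 was lost without No CM replicate 1 (0.0567). Without a TIS CM library, no member was called higher or lower in TIS CM against Cont CM. Over all 13912 tested genes, 11, 25 and 83 were called without TIS CM replicate 1, 2 or 3, against 623 with all libraries. Calls over all genes were 1084, 99 and 448 without Cont CM replicate 1, 2 or 3, and 339, 359 and 355 without No CM replicate 1, 2 or 3. Counts of higher and lower members were 2 and 5 without Cont CM replicate 1 and without Cont CM replicate 3, 0 and 1 without Cont CM replicate 2 and without No CM replicate 1, 0 and 2 without No CM replicate 2, and 0 and 3 without No CM replicate 3.

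The 6 largest rises of Cont CM over No CM came with these log2 differences of TIS CM from Cont CM and from No CM, none of them called. AC034223.2 differed by -0.66 (adjusted p = 0.0919) and 0.48 (adjusted p = 0.335), and LINC00880 by -0.34 (adjusted p = 0.218) and 0.73 (adjusted p = 0.0788). For LINC02407 they were -0.55 (adjusted p = 0.0611) and 0.52 (adjusted p = 0.148), and for LINC01764 they were -0.37 (adjusted p = 0.269) and 0.60 (adjusted p = 0.201). UCA1 differed by -0.55 (adjusted p = 0.193) and 0.37 (adjusted p = 0.54), and SFTA1P by -0.45 (adjusted p = 0.065) and 0.28 (adjusted p = 0.344). The mean of each in TIS CM lay between the means of the other groups, and a p that misses the threshold does not show that the groups were alike. These 6 were picked for a large difference between Cont CM and No CM, so a TIS CM mean between them is not a trait of the set. Means in the order Cont CM, TIS CM, No CM were seen in 29.3% of members and 24.4% of all tested genes. The reverse order was seen in 20.9% and 23.8%.

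**Figure D4:**
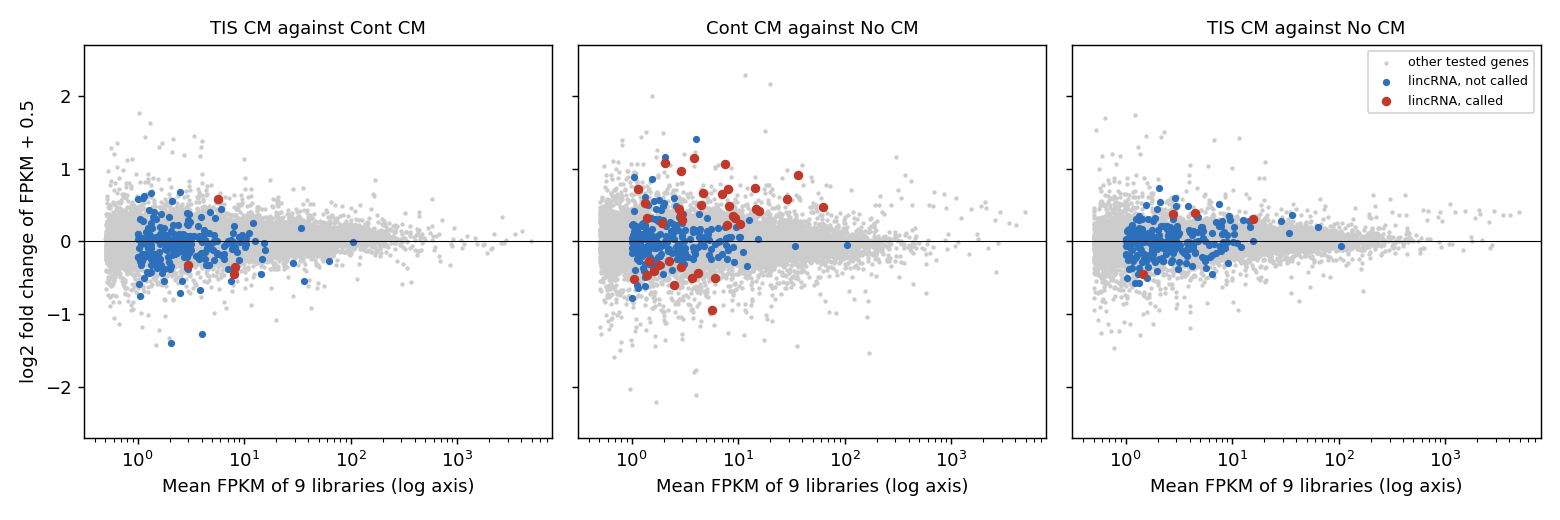
For TIS CM against Cont CM, Cont CM against No CM and TIS CM against No CM, the log2 fold change of FPKM + 0.5 is plotted against the mean FPKM over 9 libraries (log axis). Grey points are other tested genes, blue points lincRNAs not called and red points lincRNAs called, which number 4, 38 and 4.

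TIS CM differed from No CM in 4 members. FLJ22447, AC027031.2 and LINC01411 were higher in TIS CM and AC005736.1 lower, 1.61% of the set against 0.855% of all tested genes (0.403% higher and 0.453% lower). An unadjusted p under 0.05 was reached by 36 members and by 1889 of all 13912 tested genes. The median log2 difference was 0.01 for the members and 0.00 for all tested genes. TIS CM lay above No CM without overlap for 33 members and below for 22, against 12.7% and 11.6% of all tested genes. No member of the lists was called. This comparison shares its No CM libraries with that of Cont CM, in which the log2 differences of these 4 members were 0.42, 0.50, 0.44 and -0.27.

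FLJ22447, with the values given above, was higher in TIS CM than in No CM by 0.30 ± 0.05 (adjusted p = 0.0282), and its difference from Cont CM was -0.11 ± 0.05 (adjusted p = 0.175, not called). LINC01411 had 2.93, 3.17 and 2.92 FPKM in TIS CM, 3.09, 3.19 and 3.22 FPKM in Cont CM, and 2.19, 2.10 and 2.34 FPKM in No CM, a difference of TIS CM from No CM of 0.37 ± 0.06 (adjusted p = 0.0324). AC027031.2 had 4.80, 4.82 and 4.78 FPKM in TIS CM, 4.79, 4.95 and 5.89 FPKM in Cont CM, and 3.49, 3.64 and 3.45 FPKM in No CM, a difference of 0.40 ± 0.07 (adjusted p = 0.043). In these 3, all libraries with conditioned medium were above all No CM libraries. AC005736.1 had 1.19, 1.198 and 1.14 FPKM in TIS CM, 1.46, 1.45 and 1.27 FPKM in Cont CM, and 1.78, 1.74 and 1.82 FPKM in No CM, with 3 groups in that order without overlap and a difference of TIS CM from No CM of -0.44 ± 0.07 (adjusted p = 0.0323). Each of these 4 calls was lost when any single TIS CM or No CM library was left out, with adjusted p from 0.0655 (FLJ22447 without No CM replicate 1) to 0.17 (AC027031.2 without No CM replicate 3). Leaving out Cont CM replicate 1, which enters through the shared spread, gave 7 higher and 2 lower members, against 0 and 0 without any single TIS CM or No CM library. Over all tested genes, 119 were called with all libraries and 365 without Cont CM replicate 1. There were 9, 18 and 9 without TIS CM replicate 1, 2 or 3, and 13, 41 and 9 without No CM replicate 1, 2 or 3.

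Cont CM replicate 1 was the highest of the 9 libraries for 75 members (30.1%), against 18.9% of all tested genes. It exceeded every other library by at least 1.5-fold for 8 members (3.21% of the set, against 0.597% of all tested genes), among them UCA1, LINC01764, NUP50-DT and LINC02474. No other library did so for more than 1 member. LINC02474 was the extreme, with 1.84, 2.19 and 2.32 FPKM in TIS CM, 17.4, 3.35 and 3.12 FPKM in Cont CM, and 1.01, 3.11 and 1.96 FPKM in No CM, and was not called (adjusted p = 0.122 for Cont CM against No CM). It is named for that range, after its values were seen. The part of this library in the calls was not tested beyond leaving it out.

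A tested protein-coding gene lay within 100 kb of 188 members, at a median gap of 614 bases. For 47 of them the nearest such gene started within 5000 bases in a head-to-head arrangement, and 54 lincRNAs overlapped the span of the gene. Among the 26 lincRNAs higher in Cont CM than in No CM, 11 had such a neighbour, which was called higher for LINC00973 (DCBLD2) and AC009549.1 (NAV2) and called lower for none. Among the 12 lower, 7 had one, which was lower for AL391121.1 (TRIM8) and AC102953.2 (INTS1, a subunit of the Integrator complex, -0.21) and higher for LINC01806 (TANK, an adaptor of innate immune signalling, 0.29). Among the 211 not called, 170 had one, of which 14 were higher and 28 lower. Most called lincRNAs with a coding neighbour thus had a neighbour that was not called. Most coding genes were not called either: of the 11276 tested, 8.76% were higher and 9.76% lower. LINC00973 and AC009549.1 are named here after their values were seen.

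Of the 29 pairs of members within 100 kb of each other, 3 were called in the same direction in Cont CM against No CM, none in opposite directions, 7 had 1 called member and 19 had none. The 3 are FLJ22447 with HIF1A-AS2, 56862 bases apart on opposite strands, UCA1 with LINC01764, which overlap, and AC010343.3 with AC034223.2, of which the second lies within the first. Only the first of these 3 pairs is made of genes whose spans do not overlap.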

How the data were processed

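Polyadenylated RNA of 9 MDA-MB-231 samples was sequenced after poly-T capture and random priming, per the labels' protocols. Per the submitters' processing notes, reads were handled on build hg38 with featureCounts 1.5.0-p3, HISAT2 2.0.5, DESeq2 1.20.0 and fastp, whose roles are not named. Strand use in counting was not given in the sources used here. The authors deposited FPKM, with gene lengths, positions and biotypes, for 58735 genes, whose identifiers and spans match GENCODE 29. FPKM times gene length was a whole number of fragments (within 0.01) for 100% of values, and 1 fragment on 1 kb was worth 0.0255 to 0.0303 FPKM.

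Genes with a mean of at least 0.5 FPKM (13912) were tested on log2(FPKM + 0.5), which understates changes of low genes, with limma 3.58.1 (R 4.3.3; intensity trend, moderated variances) over all 9 libraries. P-values were adjusted by Benjamini-Hochberg over all tested genes and called under 0.05. Folds are on that scale. Errors are SE for log2 differences and SD for levels. The procedure was also run on simulated fragments with the same dispersion for all genes. These lack the library differences described above, so that run does not bear on the calls. Alternatives were pseudocounts of 0.1 and 1, a minimum of 2 FPKM, no filter, other scalings, voom on recovered fragments, the 6 libraries compared, a replicate block, removal of GC and length trends, and each library left out.

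Named were the 10 members with the largest called rise and fall per comparison, the 12 most abundant and those on 8 lists. Members and lists were chosen with earlier results of these data known. Promoters are from RefSeq (GRCh38.p14), read as sequence only, and RNAs from the GENCODE 29 transcripts.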

Additional observations from a re-analysis of the deposited data

How the results depend on the processing

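Counts of lincRNAs called are given as higher and lower. For Cont CM against No CM (26 and 12), no filter gave 18 and 2, a minimum of 2 FPKM 22 and 8, the 6 libraries alone 18 and 4, and leaving out 1 library 17 to 26 and 3 to 17. Calls over all tested genes went from 2272 of 13912 to 1533 of 29649 with no filter. They were 2117 of 10327 with a minimum of 2 FPKM and 1242 of 13912 with the 6 libraries alone. For TIS CM against Cont CM (1 and 3), no filter gave 0 and 0, a minimum of 2 FPKM 2 and 5, voom 1 and 7, the 6 libraries alone 0 and 1, removal of GC and length trends 0 and 1, and leaving out 1 library 0 to 2 and 0 to 5. All tested genes moved too, from 623 calls of 13912 to 207 of 29649 with no filter and 782 of 10327 with the minimum. Of 13912 genes, voom called 1085, the 6 libraries alone 33, and removal of GC and length trends 169. For TIS CM against No CM (3 and 1), no filter gave 0 and 0, a minimum of 2 FPKM 3 and 0, voom 2 and 0, equal library sums 2 and 1, the 6 libraries alone 5 and 1, and leaving out 1 library 0 to 7 and 0 to 2. Over all tested genes, calls were 119 of 13912, against 46 of 29649 with no filter and 102 of 10327 with the minimum. With voom, equal library sums and the 6 libraries alone they were 245, 134 and 331 of 13912. The cause was not tested, except that no filter tests more genes and omissions hold fewer libraries. With the replicate number as a block the counts were 19 and 8, 0 and 0, and 0 and 0, but same-numbered libraries did not deviate together (r from -0.187 to 0.084), so the numbers are not taken to pair the samples. The block called 1461, 126 and 4 of all 13912 tested genes in the same 3 comparisons. The summed level of TIS CM against No CM turned to 0.998 with equal library sums. None of the called lincRNAs with the 10 largest rises and falls per comparison changed direction, and members that were not called, such as NORAD, were not followed through the alternatives. Of the values that those called lincRNAs took under the alternatives, 299 of 375 kept the call for Cont CM against No CM, 35 of 76 for TIS CM against Cont CM and 39 of 75 for TIS CM against No CM. Low fragment counts limit the members below 2 FPKM.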
